A study of Mus musculus with 12 samples.

Results

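The genes described here are 8 surface molecules through which a myeloid cell signals to lymphocytes or shows that it is activated. They are set by name among the 34989 genes of the deposited tables, by a rule that holds no measured value but was written with earlier results of these data known, and all 8 passed the filter on low counts that left 16027 genes for testing. They are Cd80, Cd86, Icosl, Cd274 and Pdcd1lg2 of the B7 family, Tnfsf9 of the TNF superfamily, and the activation markers Cd83 and Cd69.

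A T cell that meets antigen also reads a second signal from the cell that presents it. Cd80 and Cd86 give that signal through the receptor Cd28 and are bound more tightly by the inhibitory receptor Ctla4. Icosl engages Icos and Tnfsf9 engages Tnfrsf9, both of them stimulatory, whereas Cd274 (PD-L1) and Pdcd1lg2 (PD-L2) engage the inhibitory receptor Pdcd1. Cd83 marks activated antigen-presenting cells, and Cd69 is an early activation antigen that is best known on lymphocytes, where it holds cells in tissue by binding S1pr1. Macrophages in tumors can carry ligands of either kind.

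RNA came from cells labelled tumor-associated macrophages of induced mouse melanomas, in 4 groups of 3 libraries. The combination received both agents (labelled CD40 agonist+ CSF1Ri), CD40 agonist mice received the activating antibody FGK4.5 at 10 mg/kg every 3 days for up to 10 intraperitoneal doses, CSF1Ri mice received PLX6134 chow at 600 mg/kg, and Control mice received PBS and normal chow. Mice entered treatment 30 days after induction with tumors smaller than 100 mm3 and stayed on it for 30 days, or less where tumors grew to 2 cm3. Mice of all groups were labelled wild type and carried the Tyr::CreER transgene, a Cre recombinase driven by the promoter of the melanocyte gene tyrosinase, and they were age-matched at an age that the labels leave out. Each library pooled at least 3 tumors, and the labels describe digestion, red cell lysis and dead cell removal without naming a sorting gate.

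Libraries held between 26316328 and 39818657 estimated counts. The 12 macrophage markers checked, which include Csf1r, Cd68 and Lyz2, were detected in every group, and none of them was called in any comparison (edgeR quasi-likelihood test). They were not all level: C1qb had 4.82, 3.37 and 14.5 CPM in CSF1Ri libraries, against 61.9, 51.9 and 69.7 CPM in Control libraries, and Apoe had 256, 399 and 424 CPM in CD40 agonist libraries, 11.4, 15 and 39 CPM in CSF1Ri libraries and 52.9, 73.7 and 99.3 CPM in Control libraries. Markers of T, NK, B, dendritic, mast, eosinophil, neutrophil, melanoma, fibroblast and endothelial cells were also detected. The 8 neutrophil markers summed to between 539 and 1382 CPM in the combination and 413 and 466 CPM with CD40 agonist. The sums were between 774 and 3187 CPM with CSF1Ri and 540 and 1338 CPM in Control. In the combination against Control 1 of these 8 was called lower (edgeR), while 6 of 8 had a positive log2 fold change. One library stood apart from the others of its group in each of the treated groups: combination replicate 2 had 154 summed CPM (counts per 1000000 counts after TMM scaling) over 10 dendritic cell markers, against 1586 and 1568 CPM in the other combination libraries. CSF1Ri replicate 3 had 1317 CPM over the same markers, against 519 and 629 CPM in the other CSF1Ri libraries. CD40 agonist replicate 1 lay at -116.4 on the third principal component, against -12.8 and 3.7 for the other CD40 agonist libraries. Values without the first 2 of these libraries are given where they move a result.

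Levels of genes were compared in transcripts per 1000000 transcripts (TPM, which is per length), summed over all listed transcripts of a gene. On this scale Cd83 was the most abundant of the 8 genes in every group, mostly through a non-coding transcript described below. It averaged 182 ± 131 TPM in the combination, 257 ± 50.8 TPM with CD40 agonist, 197 ± 18.8 TPM with CSF1Ri and 177 ± 65.8 TPM in Control (SD, n = 3 each). In Control, Cd86 followed at 132 ± 41.1 TPM and overlapped Cd83, then Cd274 at 80.5 ± 15.6 TPM, Pdcd1lg2 at 41.2 ± 14.5 TPM and Icosl at 41.1 ± 10.1 TPM. Cd69 at 28.6 ± 8.7 TPM, Tnfsf9 at 16.8 ± 4.93 TPM and Cd80 at 12.5 ± 1.19 TPM were the lowest in Control, and within that order only Cd274 against Pdcd1lg2 and Cd69 against Tnfsf9 were neighbours whose libraries did not overlap. In the combination the order was Cd83, Cd69 at 159 ± 10.8 TPM, Cd86 at 152 ± 75.3 TPM, Cd274 at 105 ± 37.5 TPM, Tnfsf9 at 95.3 ± 41.1 TPM, Icosl at 36.5 ± 17.2 TPM, Pdcd1lg2 at 28.9 ± 20.1 TPM and Cd80 at 18.9 ± 2.32 TPM. Each of these overlapped its neighbour. With CD40 agonist the order after Cd83 and Cd86 was Cd274, Icosl, Cd69, Tnfsf9, Pdcd1lg2 and Cd80, between 65.6 and 13.8 TPM. With CSF1Ri it was Cd69, Cd274, Icosl, Cd80, Pdcd1lg2 and Tnfsf9, between 79.3 and 13.4 TPM. Cd69 thus had rank 2 of 8 in the combination and rank 6 in Control, and Tnfsf9 rank 5 in the combination and rank 7 in Control. Over coding transcripts alone the order differs, as given below.

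**Figure D1:**
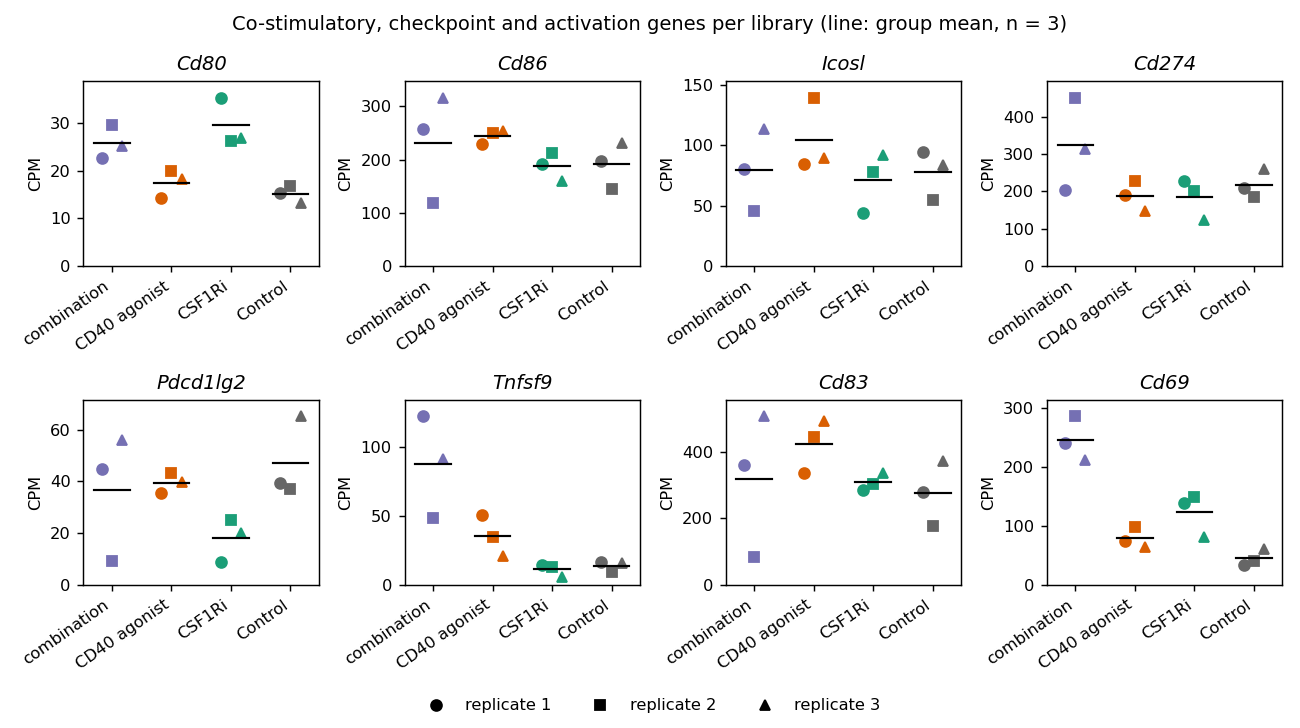
Normalised read counts (CPM after TMM scaling, vertical axes from 0) of the 8 genes in the 12 libraries, with the groups along the horizontal axes, symbols for replicates and a line at each group mean (n = 3). The combination libraries of Cd69 lie between 212 and 286 CPM, above every other library, and those of Tnfsf9 reach 122 CPM, while combination replicate 2 is the lowest or the highest of its group in every panel.

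The first comparison set the combination against Control. Tnfsf9 and Cd69 were higher in the combination and the other 6 genes did not pass the test, so 2 of 8 were called by edgeR's quasi-likelihood test at an adjusted p below 0.05. Over all genes tested 0.774% were called (124 genes, 0.462% higher and 0.312% lower). The median log2 fold change of the 8 genes was 0.42, against 0.00 for all genes tested. In bulk samples such as these, fewer cells of a type and less RNA per cell cannot be told apart.

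Cd69 (chr6:129267325-129275436, minus strand, GRCm38) had 241, 286 and 212 CPM in the combination libraries, against 32.8, 40.5 and 61.3 CPM in Control libraries. The lowest combination library was above the highest Control library by a wide margin. The log2 fold change was 2.46 ± 0.29 (SE), a 5.5-fold difference, with an edgeR adjusted p of 0.0142. It was 2.34 (edgeR adjusted p = 0.0162) without combination replicate 2. The call was lost without Control replicate 1 (2.27, edgeR adjusted p = 0.0766), replicate 2 (2.38, 0.0611) or replicate 3 (2.74, 0.0528), and in a fit of these 6 libraries alone (2.44, 0.0532).

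Tnfsf9 (chr17:57105325-57107757, plus strand), the ligand of Tnfrsf9, had 122, 48.3 and 91.3 CPM in the combination libraries, against 16.3, 9.27 and 15.3 CPM in Control libraries. Here too the groups did not overlap. The log2 fold change was 2.68 ± 0.48 (SE), a 6.39-fold difference, with an edgeR adjusted p of 0.0362, and it was 2.97 (edgeR adjusted p = 0.0266) without combination replicate 2. The call was lost without Control replicate 1 (2.82, edgeR adjusted p = 0.147), replicate 2 (2.46, 0.145) or replicate 3 (2.76, 0.119), without CD40 agonist replicate 2 (2.68, 0.0659), combination replicate 1 (2.36, 0.0815) or replicate 3 (2.64, 0.0749), without CSF1Ri replicate 1 (2.67, 0.0503) or replicate 2 (2.67, 0.0614), and in a fit of the 6 libraries alone (2.66, 0.0928). The start of Tnfsf9 overlaps Gm11110, a long non-coding RNA gene on the other strand, whose reads cannot be told apart in libraries without strand information. Gm11110 held between 1.1 and 4.51 CPM in the combination and between 0.435 and 2.49 CPM in Control.

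The B7 family ligands were smaller and did not pass. Cd80 (chr16:38455561-38496335, plus strand) had 22.7, 29.5 and 25.2 CPM in the combination libraries, against 15.3, 16.8 and 13.3 CPM in Control libraries. The groups did not overlap, and the log2 fold change of 0.77 ± 0.22 (SE) had an edgeR adjusted p of 0.15. With these 3 genes, 3 of 8 were higher in every combination library than in every Control library and none was lower in every one, where 22.3% of all genes tested did not overlap (10.8% higher). Cd80 was called by DESeq2 (0.79, adjusted p = 0.0153), which called 933 genes in this comparison.

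The remaining 5 genes overlapped between the combination and Control. Cd86 (chr16:36603869-36666081, minus strand) had 257, 118 and 316 CPM in the combination libraries, against 197, 144 and 232 CPM in Control libraries. Cd274 (chr19:29367455-29388095, plus strand) had 204, 451 and 315 CPM in the combination libraries, against 209, 186 and 259 CPM in Control libraries. Pdcd1lg2 (chr19:29410919-29471161, plus strand) had 44.9, 9.22 and 56.2 CPM in the combination libraries, against 39.4, 37 and 65.2 CPM in Control libraries. These 3 ligands differed between combination libraries by more than the group means differed from Control. Icosl (chr10:78069302-78083913, plus strand) had 80.2, 45.3 and 113 CPM in the combination libraries, against 94, 54.7 and 83.9 CPM in Control libraries. Cd83 (chr13:43784775-43803132, plus strand) had 362, 82.4 and 508 CPM in the combination libraries, against 279, 178 and 372 CPM in Control libraries. For Cd83 a single library was far below the rest. The log2 fold changes were 0.27 ± 0.30 for Cd86, 0.57 ± 0.30 for Cd274, -0.36 ± 0.55 for Pdcd1lg2, 0.04 ± 0.37 for Icosl and 0.20 ± 0.49 for Cd83 (SE), with edgeR adjusted p between 0.409 and 0.98.

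**Figure D2:**
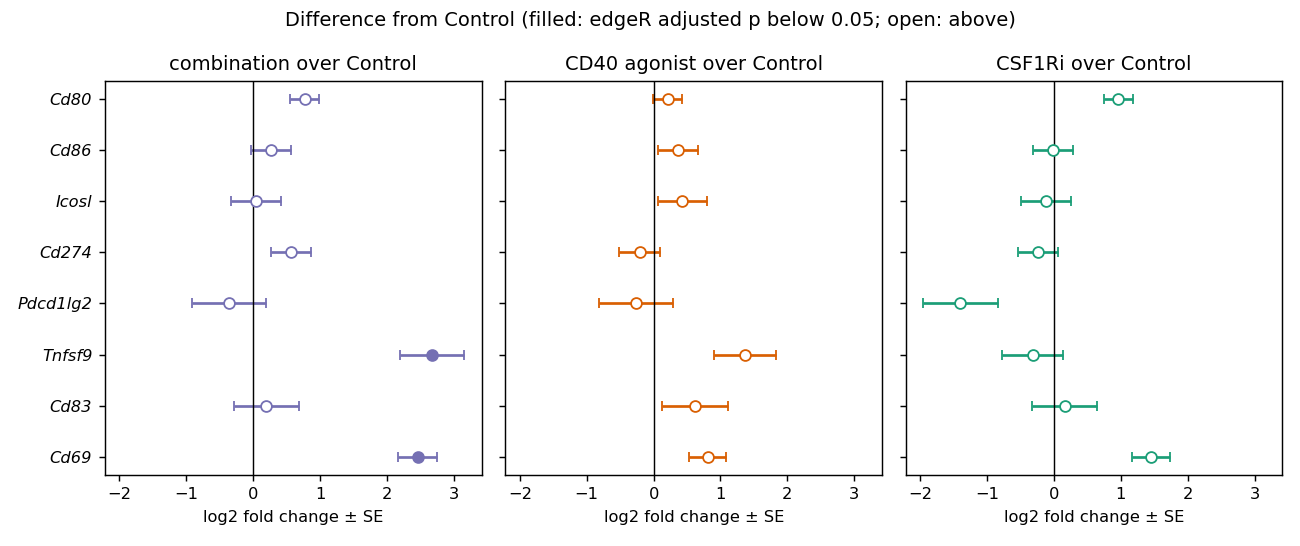
Log2 fold changes over Control with their standard errors (horizontal axes) for the 8 genes (rows), with panels for the combination, CD40 agonist and CSF1Ri. Filled points have an edgeR adjusted p below 0.05 and are those of Cd69 and Tnfsf9 in the combination, at 2.46 and 2.68.

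With CD40 agonist alone no gene was called, of the 8 or of all genes tested (0%). Other tools called up to 195 genes in this comparison, and 1231 genes (7.68%) had an unadjusted p below 0.05 in edgeR, among them Tnfsf9 and Cd69. Tnfsf9 had 50.6, 34.3 and 20.7 CPM in CD40 agonist libraries, against 16.3, 9.27 and 15.3 CPM in Control libraries. The log2 fold change was 1.37 ± 0.46 (SE, edgeR adjusted p = 0.556), and 1.02 to 1.64 with 1 library left out. Cd69 had 74.8, 97.4 and 64.1 CPM in CD40 agonist libraries, against 32.8, 40.5 and 61.3 CPM in Control libraries, with a log2 fold change of 0.81 ± 0.28 (SE, edgeR adjusted p = 0.559). Neither gene overlapped between the groups, and these 2 of 8 stand beside 8.34% of all genes tested that were higher in every CD40 agonist library. The other 6 genes overlapped, and their log2 fold changes lay between -0.26 for Pdcd1lg2 and 0.62 for Cd83. Cd86 was at 229, 250 and 254 CPM in CD40 agonist libraries, the tightest of the 4 groups for that gene, against 197, 144 and 232 CPM in Control libraries. Cd83 had 336, 447 and 495 CPM in CD40 agonist libraries, against 279, 178 and 372 CPM in Control libraries. Icosl had 84.6, 139 and 89.4 CPM in CD40 agonist libraries, against 94, 54.7 and 83.9 CPM in Control libraries. For these 3 genes the CD40 agonist mean was the higher one, with overlap. Cd80 (14.2, 19.9 and 18.2 CPM), Cd274 (190, 229 and 148 CPM) and Pdcd1lg2 (35.3, 43.2 and 39.6 CPM) also overlapped their Control values given above. The median log2 fold change of the 8 genes was 0.40, against 0.01 for all genes tested.

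With CSF1Ri alone none of the 8 genes was called and 0.0125% of all genes tested were (2 genes). The count at an unadjusted p below 0.05 was 3 of 8 (edgeR), namely Cd69, Cd80 and Pdcd1lg2, beside 9.47% of all genes tested. DESeq2 called 2 of the 8, and 408 genes in all in this comparison. Cd69 had 139, 149 and 80.8 CPM in CSF1Ri libraries, against 32.8, 40.5 and 61.3 CPM in Control libraries. Its groups did not overlap, with a log2 fold change of 1.45 ± 0.28 (SE, edgeR adjusted p = 0.103). Without CSF1Ri replicate 3 the value was 1.66 and was called (edgeR adjusted p = 0.0272), as it was by DESeq2 (1.46, adjusted p = 0.000161).

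Cd80 had 35.3, 26.3 and 26.9 CPM in CSF1Ri libraries, against 15.3, 16.8 and 13.3 CPM in Control libraries, the highest of the 4 groups by its mean. Cd80 differed by a log2 fold change of 0.96 ± 0.22 (SE, edgeR adjusted p = 0.166), with no overlap, and DESeq2 called it (0.97, adjusted p = 0.00243). Pdcd1lg2 went the other way, with 8.86, 25 and 19.9 CPM in CSF1Ri libraries, against 39.4, 37 and 65.2 CPM in Control libraries. Its log2 fold change of -1.40 ± 0.56 (SE) had an edgeR adjusted p of 0.472, although every CSF1Ri library was below every Control library. These are 2 of 8 genes higher without overlap and 1 of 8 lower, beside 7.23% and 8.55% of all genes tested. Tnfsf9 had 14.5, 12.9 and 5.45 CPM in CSF1Ri libraries, against 16.3, 9.27 and 15.3 CPM in Control libraries, and did not differ beyond its spread. In CSF1Ri libraries Cd86 (191, 212 and 160 CPM), Cd274 (227, 201 and 124 CPM), Icosl (43.8, 78.1 and 91.7 CPM) and Cd83 (286, 303 and 336 CPM) overlapped Control too, with log2 fold changes between -0.24 and 0.16.

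The combination was next set against each agent alone. Against CD40 agonist no gene was called, of the 8 or of all genes tested (0%), and 1450 genes (9.05%) had an unadjusted p below 0.05 in edgeR, among them Cd80, Cd274, Tnfsf9 and Cd69. Other tools called up to 275 genes. Cd69 had 241, 286 and 212 CPM in the combination libraries, against 74.8, 97.4 and 64.1 CPM in CD40 agonist libraries. Its log2 fold change of 1.65 ± 0.29 (SE) had an edgeR adjusted p of 0.183, and it was called by DESeq2 (1.65, adjusted p = 2.02e-05) and by limma on log2(TPM + 1) (1.76, adjusted p = 0.0245). Tnfsf9 reached 122, 48.3 and 91.3 CPM in the combination libraries, against 50.6, 34.3 and 20.7 CPM in CD40 agonist libraries. These groups overlapped, and the log2 fold change was 1.31 ± 0.46 (SE, edgeR adjusted p = 0.411). Cd80 and Cd69 were higher in every combination library than in every CD40 agonist library, where 6.6% of all genes tested were, and none of the 8 was lower in every one, where 6.93% of all genes tested were. Cd274 overlapped, with a log2 fold change of 0.78 ± 0.30 (SE, edgeR adjusted p = 0.461), which was 0.46 without combination replicate 2.

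Against CSF1Ri, Tnfsf9 was the gene called of the 8, where 1.94% of all genes tested were (311 genes). It had 122, 48.3 and 91.3 CPM in the combination libraries, against 14.5, 12.9 and 5.45 CPM in CSF1Ri libraries, with no overlap. The log2 fold change was 2.99 ± 0.49 (SE), a 7.97-fold difference, with an edgeR adjusted p of 0.0181, and it was 2.68 (edgeR adjusted p = 0.0323) without CSF1Ri replicate 3. The call was lost without combination replicate 1 (edgeR adjusted p = 0.0513), CSF1Ri replicate 1 (0.0513) or CSF1Ri replicate 2 (0.0824), and in a fit of the 6 libraries alone (0.115). Cd69 had 241, 286 and 212 CPM in the combination libraries, against 139, 149 and 80.8 CPM in CSF1Ri libraries, with a log2 fold change of 1.01 ± 0.28 (SE, edgeR adjusted p = 0.0948; DESeq2 adjusted p = 0.0107). Tnfsf9 and Cd69 were the 2 genes without overlap, beside 21.9% of all genes tested (10.8% higher). Cd274 came to 0.81 ± 0.30 (SE, edgeR adjusted p = 0.189), Pdcd1lg2 to 1.04 ± 0.56 (SE, edgeR adjusted p = 0.355), and Cd80 to -0.19 ± 0.22 (SE, edgeR adjusted p = 0.698). Without combination replicate 2 and CSF1Ri replicate 3 these were 0.28 for Cd274, 1.58 for Pdcd1lg2 and -0.36 for Cd80, and Cd69 was 0.66, none of them called by edgeR.

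Whether the agents together did more or less than the sum of their separate effects on the log2 scale was tested as an interaction. None of the 8 genes passed, nor did any gene tested (0%), and 1305 genes (8.14%) had an unadjusted p below 0.05, among them Tnfsf9 and Cd274. DESeq2 called 172 genes and none of the 8. The interaction was 1.63 ± 0.64 for Tnfsf9 (SE, edgeR adjusted p = 0.541) and 1.02 ± 0.42 for Cd274 (SE, edgeR adjusted p = 0.574). For Cd69 it was 0.19 ± 0.39 (SE, edgeR adjusted p = 0.956), where the single-agent log2 fold changes were 0.81 and 1.45 and that of the combination was 2.46. The test of any difference among the 4 groups called Tnfsf9 (edgeR adjusted p = 0.0283) and Cd69 (edgeR adjusted p = 0.0203), 2 of 8 beside 1.2% of all genes tested. Neither was called without Control replicate 1 or 2, and Tnfsf9 was also lost without Control replicate 3, CD40 agonist replicate 2, combination replicates 1 or 3, and CSF1Ri replicates 1 or 2.

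Combination replicate 2 carried a different mix of these molecules from the other combination libraries. It was the lowest of its group for Cd86, Icosl, Pdcd1lg2, Tnfsf9 and Cd83 and the highest for Cd80, Cd274 and Cd69. Without it the log2 fold change over Control was 0.59 for Cd86, 0.32 for Icosl, 0.66 for Cd83 and 0.25 for Cd274, and that of Pdcd1lg2 turned to 0.10. None of these passed in edgeR with or without the library. The interaction of Cd274 was 0.70 without it and 0.49 without CSF1Ri replicate 3 as well.

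Of 10 dendritic cell markers, 8 were also lowest in combination replicate 2 among the combination libraries. In the combination Ccr7, the chemokine receptor of migrating dendritic cells, had 880, 78.4 and 855 CPM, and Fscn1, an actin-bundling protein of mature dendritic cells, had 424, 43.3 and 363 CPM. Flt3, the receptor for a growth factor of dendritic cells, had 90.2, 3.52 and 105 CPM. Cd209a had 100, 0.0678 and 152 CPM. The other 2 markers differed from this, with 0.408, 2.27 and 0.613 CPM for Clec9a and 5.47, 8.03 and 21.2 CPM for Xcr1. The 10 markers summed to 154 to 1586 CPM in the combination, 971 to 1155 CPM with CD40 agonist, 519 to 1317 CPM with CSF1Ri and 967 to 1351 CPM in Control, none was at 0 in a whole group, and 0 of 10 were called in the combination against Control (edgeR). The 12 macrophage markers went the other way, with sums of 13849, 33837 and 17174 CPM in the combination libraries. Most of each sum was Lyz2, at 11407, 30884 and 14832 CPM. In the same combination libraries Irf1, an interferon-induced transcription factor, had 350, 565 and 324 CPM. These markers and Irf1 are named after their values were seen. The part of dendritic cells in the values of Cd83, Cd86, Icosl and Pdcd1lg2 was not tested.

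**Figure D3:**
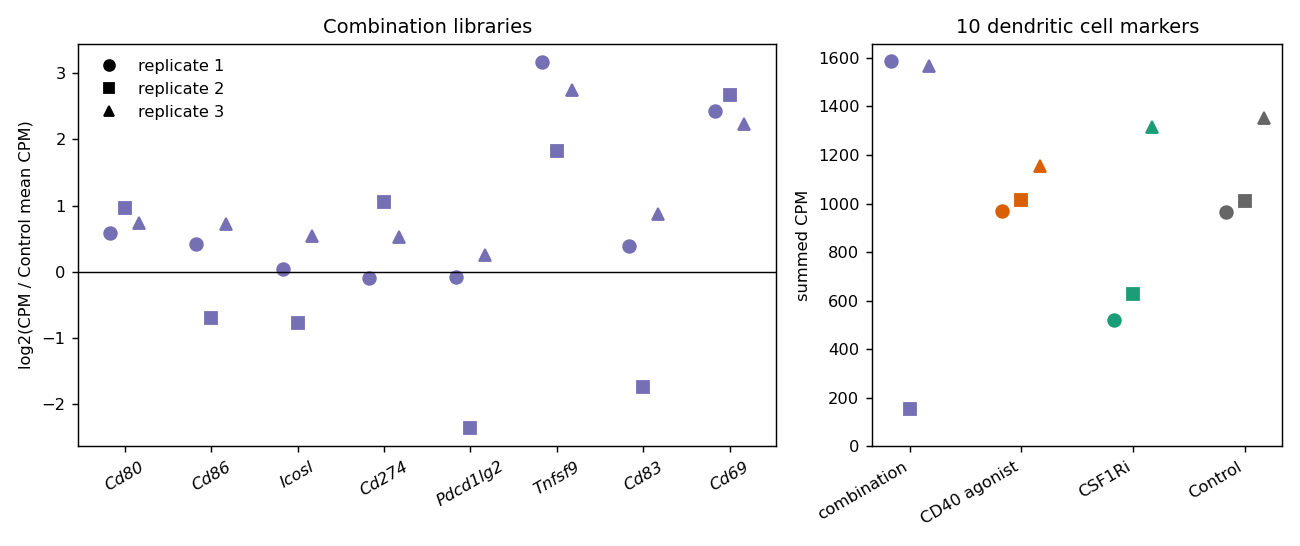
Left, log2 of each combination library's CPM over the Control mean (vertical axis) for the 8 genes, with symbols for replicates. Right, CPM summed over 10 dendritic cell markers in all 12 libraries by group. Combination replicate 2 lies below the Control mean for Cd86, Icosl, Pdcd1lg2 and Cd83 and has a marker sum of 154 CPM.

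Markers of cells that can carry Cd69 were measured beside it. The 7 mast cell and basophil markers summed to between 272 and 378 CPM in the combination, 115 and 220 CPM with CD40 agonist, 166 and 330 CPM with CSF1Ri and 72.1 and 105 CPM in Control, the same order of group means as Cd69. Of these markers 3 of 7 were higher in the combination than in Control (edgeR), namely Cpa3, Fcer1a and Mcpt8, and Mcpt4 was at 0 in all Control libraries. The 10 T cell markers summed to between 57.9 and 84.9 CPM in the combination, 95.6 and 161 CPM with CD40 agonist, 45.2 and 61.8 CPM with CSF1Ri and 99 and 124 CPM in Control, with 0 of 10 called and none at 0 in a whole group. The 8 NK cell markers summed to between 866 and 1386 CPM in the combination, 807 and 1514 CPM with CD40 agonist, 416 and 630 CPM with CSF1Ri and 606 and 880 CPM in Control, with none at 0 in a whole group. In the combination against CSF1Ri, 2 of those 8 were higher (Gzma and Klrk1), and against Control 0 of 8 were (edgeR). The 8 B cell markers summed to between 111 and 204 CPM in the combination, 291 and 376 CPM with CD40 agonist, 158 and 198 CPM with CSF1Ri and 280 and 317 CPM in Control. Pax5 was at 0 in the combination, and Ms4a1 was lower in the combination than in Control (edgeR). The 6 eosinophil markers summed to between 16.6 and 28.4 CPM in the combination, 9.23 and 23 CPM with CD40 agonist, 141 and 222 CPM with CSF1Ri and 23 and 51.9 CPM in Control, and 3 of the 5 that were tested were lower in the combination than with CSF1Ri (Il5ra, Ccr3 and Ear6, edgeR). Epx and Prg2 were at 0 in the combination and with CD40 agonist, and Epx also in Control. The part of these cells in the values of Cd69 was not tested.

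Markers of the tumor cells stood beside Tnfsf9. The 7 melanocyte and melanoma markers summed to 105, 26.6 and 54.8 CPM in the combination libraries, 59.8, 34.9 and 40.3 CPM in CD40 agonist libraries, 15.6, 11.5 and 11.1 CPM in CSF1Ri libraries and 18.1, 19.9 and 24.7 CPM in Control libraries. The group means had the same order as those of Tnfsf9, and so did the 3 combination libraries. None of the 7 was called in any comparison (edgeR). Tyrp1, Mlana and Sox10 were at 0 in all CSF1Ri libraries and Sox10 in all Control libraries. The part of tumor cells in the values of Tnfsf9 was not tested.

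Genes that respond early to stress, and to the digestion of tissue, stood beside both genes that were called. The 18 genes of that list summed to between 6345 and 8382 CPM in the combination, 5646 and 6566 CPM with CD40 agonist, 3761 and 5911 CPM with CSF1Ri and 4056 and 4462 CPM in Control. In the combination against Control 5 of 18 were higher (edgeR), namely Fosb, Fos, Atf3, Jun and Junb, with a median log2 fold change of 1.08 over the list. In the combination against CSF1Ri 2 of 18 were higher, Atf3 and Jun. Atf3, a stress-induced transcription factor, averaged 451 ± 75.1 CPM in the combination, 290 ± 66.5 CPM with CD40 agonist, 95.7 ± 32.8 CPM with CSF1Ri and 79.9 ± 8.89 CPM in Control (SD, n = 3 each). The part of the response to stress and digestion in the values of Tnfsf9 and Cd69 was not tested.

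The 3 genes whose log2 CPM lay nearest to that of Tnfsf9 over the 12 libraries, after each gene was centred on its own mean, were Ifrd1, Atf3 and Btg3. Their root mean square differences from Tnfsf9 were 0.51, 0.53 and 0.58, against a spread of 1.29 of Tnfsf9 around its own mean. Ifrd1 averaged 61.3 ± 21.2 CPM in the combination, 40.6 ± 11.8 CPM with CD40 agonist, 17.3 ± 9.04 CPM with CSF1Ri and 14.4 ± 4.98 CPM in Control (SD, n = 3 each). Nearest to Cd69 were Ccl4 at 0.39, Cpa3 at 0.41 and Osm at 0.43, against a spread of 0.96 of Cd69 itself. Ccl4, a chemokine of activated leukocytes, averaged 1072 ± 256 CPM in the combination, 491 ± 137 CPM with CD40 agonist, 646 ± 346 CPM with CSF1Ri and 233 ± 13 CPM in Control. Cpa3, a protease of mast cells and basophils, averaged 65 ± 6.57 CPM in the combination, 30.2 ± 12.9 CPM with CD40 agonist, 44.6 ± 12.1 CPM with CSF1Ri and 14.6 ± 5.31 CPM in Control. Osm, the cytokine oncostatin M, averaged 376 ± 31.3 CPM in the combination, 151 ± 48.3 CPM with CD40 agonist, 329 ± 175 CPM with CSF1Ri and 69.6 ± 9.15 CPM in Control. These likenesses describe 12 libraries of 4 groups and were not tested.

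Of the 7 receptors of the 8 molecules, 6 averaged at most 17.3 CPM in any group, and none of the 7 was called in any comparison (edgeR). Tnfrsf9, the receptor of Tnfsf9, was the most abundant, at 62 ± 27.2 CPM in the combination, 72.4 ± 42 CPM with CD40 agonist, 31.1 ± 21.8 CPM with CSF1Ri and 78.3 ± 19 CPM in Control. Icos averaged 7.05 ± 2.62 CPM in the combination, 14.7 ± 9.28 CPM with CD40 agonist, 4.78 ± 1.68 CPM with CSF1Ri and 17.3 ± 9.01 CPM in Control. Pdcd1 averaged 6.21 ± 3.73 CPM in the combination, 6.16 ± 1.42 CPM with CD40 agonist, 1.01 ± 1.72 CPM with CSF1Ri and 2.44 ± 0.99 CPM in Control. Thus Tnfsf9 was several times higher in the combination than in Control while its receptor overlapped between them. Cd28, Ctla4, Rgmb (a partner of Pdcd1lg2) and S1pr1 averaged between 1.09 and 10.4 CPM in every group. Cd28 is also one of the T cell markers above. The median log2 fold change of the 7 receptors was -0.51 in the combination against Control and -1.28 with CSF1Ri against Control, beside 0.00 and -0.01 for all genes tested.

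Of 19 other co-stimulatory and checkpoint genes, most of them ligands, 17 were tested and Cd40 was the gene called. Cd40, the receptor that the antibody FGK4.5 activates, had 303, 189 and 239 CPM in the combination libraries, against 62, 60.4 and 109 CPM in CSF1Ri libraries. Its log2 fold change was 1.66 ± 0.27 (SE, edgeR adjusted p = 0.0181), and the call was lost without combination replicate 1 (0.0519), CSF1Ri replicate 1 (0.0758) or CSF1Ri replicate 2 (0.0899) and in the fit of 6 libraries (0.124). In Control libraries it had 140, 98.1 and 151 CPM, below every combination library, with a log2 fold change of 0.91 ± 0.26 (SE, edgeR adjusted p = 0.153) for the combination over Control. Vtcn1 was at 0 in all 12 libraries, and Tnfsf18 had 1.49 CPM in combination replicate 2 and 0 elsewhere, both named after their values were seen. The other 16 genes tested did not pass in any comparison, and the median log2 fold change of the 17 was 0.32 in the combination against Control.

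Of 16 known regulators of these molecules 15 were tested, and 2 changed in the combination against Control. Tnf, an inflammatory cytokine of activated macrophages, had 142, 266 and 96.3 CPM in the combination libraries, against 24.7, 20.5 and 21.7 CPM in Control libraries. Its log2 fold change was 2.91 ± 0.39 (SE, edgeR adjusted p = 0.0156), and the call was lost without Control replicate 1 (0.0887), 2 (0.0691) or 3 (0.0896) and in the fit of 6 libraries (0.0756). Against CSF1Ri, where Tnf had 11.1, 12.5 and 7 CPM, it was 4.04 ± 0.41 (SE, edgeR adjusted p = 0.0066; 0.0868 in the fit of 6 libraries). With CD40 agonist alone Tnf had 115, 76.2 and 58.8 CPM, above every Control library and overlapping the combination. Nfkb1, which encodes the p105 and p50 subunits of NF-kB, had 250, 231 and 245 CPM with CD40 agonist alone, below every Control library. Neither gene was called with CD40 agonist against Control (edgeR). Nfkb1 was called lower in the combination, with 202, 181 and 227 CPM against 320, 316 and 318 CPM in Control libraries. The log2 fold change was -0.65 ± 0.12 (SE, edgeR adjusted p = 0.0362), and the call was lost without any one library other than combination replicate 3 or CSF1Ri replicate 3, with values between -0.66 and -0.57 and edgeR adjusted p between 0.0505 and 0.147 where it was lost, and in the fit of 6 libraries (0.128). Against CSF1Ri, Nfkb1 was also lower at -0.65 ± 0.12 (SE, edgeR adjusted p = 0.023; lost without combination replicate 1, 0.0624, without CSF1Ri replicates 1, 0.0824, and 2, 0.0997, and in the fit of 6 libraries, 0.174).

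Nfkb2, the gene of the alternative NF-kB pathway on which CD40 also signals, had 75.2, 78 and 83.2 CPM in the combination libraries, against 47.6, 49.2 and 50.2 CPM in CSF1Ri libraries. Its log2 fold change was 0.69 ± 0.13 (SE, edgeR adjusted p = 0.027). The call was lost without combination replicate 1 (0.0557) or 3 (0.0682) and CSF1Ri replicate 1 (0.0904) or 2 (0.0952), in the fit of 6 libraries (0.155), with no scaling factor (0.58, 0.0621) and on log2(TPM + 1) (0.47, limma adjusted p = 0.116). In Control libraries Nfkb2 had 57, 64.1 and 60.7 CPM, below every combination library. With CD40 agonist alone it had 47.5, 41.7 and 49.2 CPM, below every Control library. Nfkb2 was not called against Control in either group (edgeR). Ifng, an inducer of Cd274, was called by the test of any difference (edgeR adjusted p = 0.0381). It averaged 14.3 ± 1.81 CPM in the combination, 16.1 ± 4.3 CPM with CD40 agonist, 4.54 ± 2.46 CPM with CSF1Ri and 3.45 ± 0.883 CPM in Control. Cd274 averaged 323 ± 124 CPM in the combination, 189 ± 40.2 CPM with CD40 agonist, 184 ± 53.5 CPM with CSF1Ri and 218 ± 37.3 CPM in Control. A link between Ifng and Cd274 was not tested.

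Ratios within a library do not depend on scaling between libraries. The summed TPM of Cd80 and Cd86 over that of Cd274 and Pdcd1lg2 was 1.92, 0.605 and 1.5 in the combination, 1.77, 1.56 and 2.15 with CD40 agonist, 1.76, 1.78 and 2.08 with CSF1Ri and 1.3, 1.06 and 1.18 in Control. Each library of either single agent was above every Control library, and the combination libraries fell on both sides of Control. Cd80 over Cd86 was 0.0934, 0.305 and 0.0924 in the combination, 0.0718, 0.096 and 0.086 with CD40 agonist, 0.223, 0.148 and 0.207 with CSF1Ri and 0.0965, 0.151 and 0.0654 in Control. Cd274 over Pdcd1lg2 was 1.91, 20.7 and 2.37 in the combination, 2.27, 2.24 and 1.58 with CD40 agonist, 10.9, 3.39 and 2.64 with CSF1Ri and 2.25, 2.13 and 1.68 in Control. Every CSF1Ri library was above every Control library in that last ratio. These ratios were chosen after values were seen and were not tested.

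**Figure D4:**
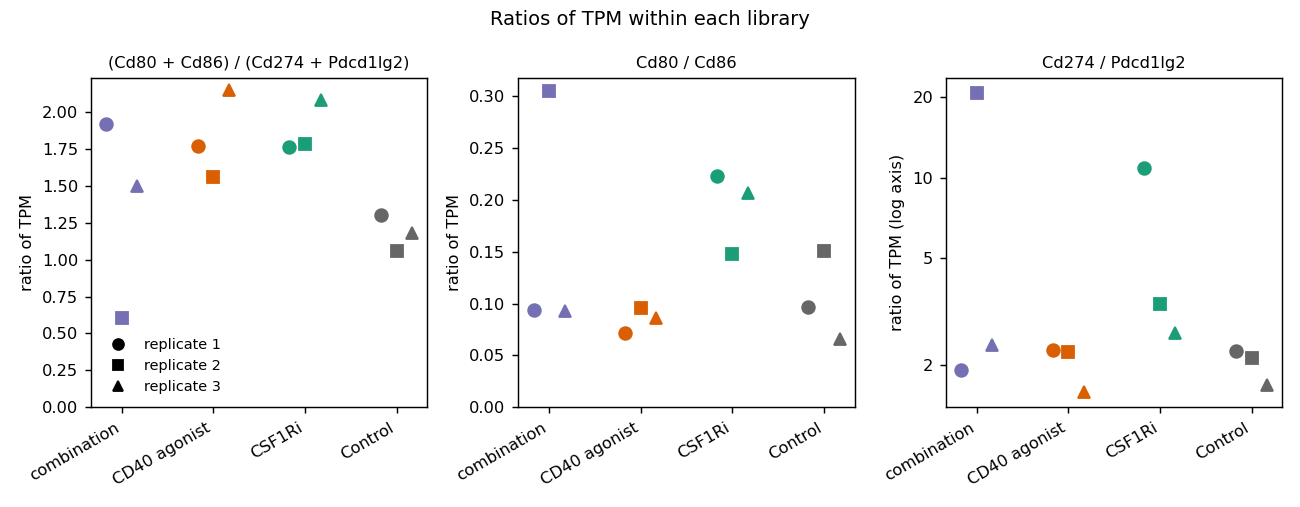
Ratios of TPM in each of the 12 libraries, by group, with symbols for replicates; the right panel has a logarithmic axis. Cd274 over Pdcd1lg2 reaches 20.7 in combination replicate 2 and 10.9 in CSF1Ri replicate 1, against 1.68 to 2.25 in Control.

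Cd274 and Pdcd1lg2 are neighbours on chromosome 19 on the same strand, so their starts are shown side by side. The 250 bases before each start are given 5′ to 3′ from RefSeq (GRCm38.p6, plus strand), Cd274 from chr19:29367188-29367437 and Pdcd1lg2 from chr19:29410669-29410918, with capitals for an NF-kB motif.
Cd274 promoter: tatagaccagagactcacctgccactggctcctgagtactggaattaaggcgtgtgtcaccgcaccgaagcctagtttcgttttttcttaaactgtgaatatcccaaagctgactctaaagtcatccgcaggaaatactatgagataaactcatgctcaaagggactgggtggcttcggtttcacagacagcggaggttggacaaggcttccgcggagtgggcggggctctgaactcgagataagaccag
Pdcd1lg2 promoter: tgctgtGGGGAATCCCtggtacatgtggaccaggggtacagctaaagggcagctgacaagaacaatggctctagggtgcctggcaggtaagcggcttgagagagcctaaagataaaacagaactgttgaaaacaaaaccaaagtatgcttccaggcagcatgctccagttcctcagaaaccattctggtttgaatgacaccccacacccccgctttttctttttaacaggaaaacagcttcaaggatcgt

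RefSeq promoters were matched for 4 of the 8 genes, the others being Cd80 and Icosl. Positions are counted from the RefSeq start, which for Cd80 and Icosl lies inside the GENCODE gene span given above. The windows were chr16:38458683-38458932 for Cd80 and chr10:78069118-78069367 for Icosl, both on the plus strand. Both strands were searched for 4 motifs, the NF-kB consensus, the AP-1 type TGANTCA, the interferon type (GAAA, any 2 bases, GAAA) and the STAT type TTCNNNGAA. The NF-kB motif lay at -244 to -235 from the start in Pdcd1lg2 and at -111 to -102 in Icosl, and 7.25% of 32851 promoters of the same length hold it. TGANTCA lay at -42 to -36 in Cd80, and 6.75% of promoters hold it. The interferon type (2.98% of promoters) and TTCNNNGAA (7.02%) were found in none of the 4, and the Cd274 window held none of the motifs. A match of letters is a description of the sequence and was not tied to any value above.

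The deposited values are per transcript, and for Cd83 most of them lie on a transcript that does not encode the protein. Cd83-202, annotated as a retained intron, held 86.3% of the mean TPM over all libraries, and Cd83-201, the coding transcript, 13.7%. The share of Cd83-202 was 84.63% ± 3.75 in the combination, 85.72% ± 3.28 with CD40 agonist, 87.09% ± 0.74 with CSF1Ri and 86.58% ± 0.59 in Control (SD, n = 3 each). These shares overlapped between all groups. Over the coding transcript alone Cd83 averaged 24.9 TPM in the combination, 37.4 TPM with CD40 agonist, 25.3 TPM with CSF1Ri and 23.8 TPM in Control, below Cd86, so that its first rank rests on Cd83-202. Cd83-202 lacks the first 410 bases of exon 1 of Cd83-201 and keeps the 95 bases of its first intron (chr13:43785251-43785345, plus strand, GRCm38), which lies between coding exons. That intron is printed from the GENCODE M21 sequence of Cd83-202 because Cd83-202 keeps it and Cd83-201 does not, with capitals for the splice dinucleotides at its ends.
Cd83 intron 1: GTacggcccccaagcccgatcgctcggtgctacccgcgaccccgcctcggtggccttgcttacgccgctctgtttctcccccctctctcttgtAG

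Reads were divided between transcripts by the quantifier, so these shares are estimates and were not tested. For Cd69 the coding transcript Cd69-201 held 69.9% of the mean TPM, the retained intron form Cd69-204 14.1% and the second coding form Cd69-203 8.96%. The share of Cd69-204 was 11.12% ± 3.69 in the combination and 16.36% ± 1.19 in Control. Over the coding transcripts alone Cd69 averaged 130 TPM in the combination, 35 TPM with CD40 agonist, 60.6 TPM with CSF1Ri and 22.2 TPM in Control. For Cd86 the coding transcript Cd86-201 held 67.3% and the non-coding Cd86-202 19.96%, and for Icosl the coding Icosl-201 held 77.7%. A second coding form, Icosl-203, held 6.53%. Of all listed transcripts, Icosl-201 had the share that varied most in the combination, at 79.67% ± 12.21, and in Control, at 66.69% ± 19.38. Cd80, Cd274, Pdcd1lg2 and Tnfsf9 each had 1 listed transcript.

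**Figure D5:**
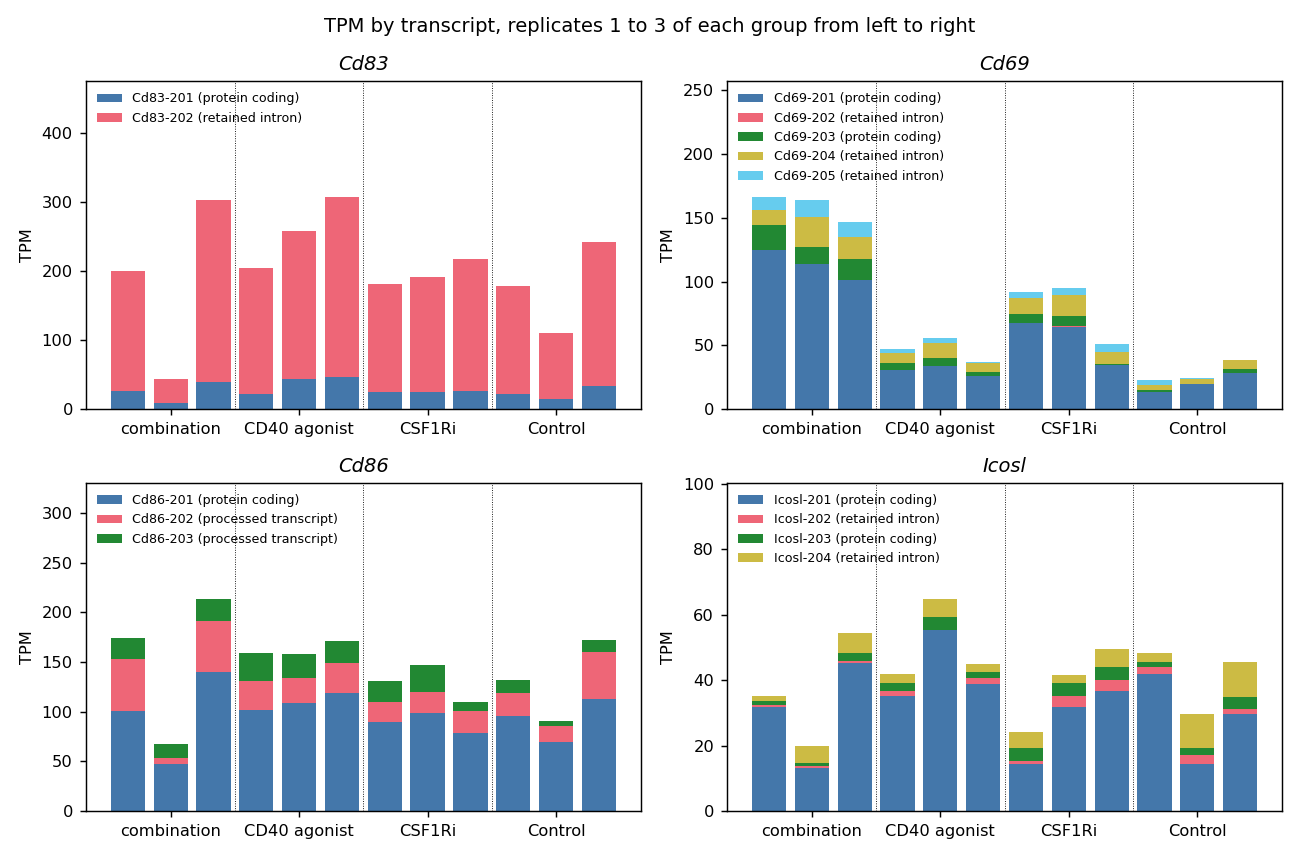
TPM of each listed transcript (stacked bars from 0) of Cd83, Cd69, Cd86 and Icosl in the 12 libraries, replicates 1 to 3 of each group from left to right. Cd83-202 makes up most of every Cd83 bar, and Cd69-201 most of every Cd69 bar, including the combination bars near 159 TPM.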

How the data were processed

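RNA-seq was compared in 12 libraries, 3 in each of 4 groups named by the labels. Per the labels' protocols, unstranded libraries were made from 50 ng of RNA and sequenced as paired reads. Per the submitters' processing notes the authors used STAR, HTSeq and DESeq2 with mm10. Per the file headers, however, the deposited files hold, per transcript, an estimated count and a TPM value, a layout HTSeq does not write, and neither labels nor headers name the quantifier. The authors deposited each estimated count without normalization, and each library's deposited TPM add up to 1000000.

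Of 111462 transcripts, 110203 (98.9%) matched GENCODE M21 (GRCm38, 1-based gene spans), and the rest held 0.378% to 0.436% of counts. Estimated counts were summed per gene, rounded and fitted with edgeR 4.0.16 under R 4.3.3, using filterByExpr, TMM scaling, 1 term per group and robust quasi-likelihood F-tests with 8 residual degrees of freedom; p-values were Benjamini-Hochberg adjusted over 16027 genes and calls made below 0.05. The procedure was tested on simulated data. SE come from the fit. Nearest genes were ranked on log2 CPM with a prior count of 2. Alternatives used DESeq2 1.42.0, limma 3.58.1 (voom, and log2 of TPM + 1), other scaling, no filter, a replicate block, 6 libraries, and each library left out. By rule, all 8 genes and their receptors are named, other co-stimulatory and checkpoint genes and regulators where called, and the 3 nearest genes of each called gene. Members and lists were chosen with earlier results of these data known. The labels do not say whether samples of a group come from separate experiments, so each p-value reflects only how pooled samples of a group vary, which may be technical. Comparisons with Control share its 3 libraries. Same-numbered libraries did not deviate together, so numbers were not used as pairs. The complete genotype and some genes are not reported here. Precision is set by 3 libraries a group rather than by depth.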

Additional observations from a re-analysis of the deposited data

How the results depend on the processing

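Of 1048 refitted log2 fold changes of the 8 genes, 976 kept their direction and side of the threshold, 17 lost a call, 8 gained one and 47 changed sign. Every sign change was in a value that was not called. With 3 libraries a group, small changes were not detectable. The common coefficient of variation over all genes tested was 61%, which is not the spread of each of the 8 genes. The number of genes called ranged from 0 to 195 (CD40 agonist against Control), 0 to 408 (CSF1Ri against Control), 0 to 933 (combination against Control), 0 to 275 and 0 to 1484 (combination against CD40 agonist and CSF1Ri), 0 to 172 (interaction) and 13 to 1671 (any difference), DESeq2 giving the highest.

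Genes called of the 8 went to 2 by DESeq2 and 1 without both combination replicate 2 and CSF1Ri replicate 3 for CSF1Ri against Control (leaving out 1 library, 0 to 1). They went to 0 in the 6-library fit for the combination against Control (leaving out 1, 0 to 2), and to 1 by DESeq2 and on log2(TPM + 1) against CD40 agonist. Against CSF1Ri they went to 2 by DESeq2 and 0 in the 6-library fit (leaving out 1, 0 to 1), and for any difference the leave-one-out range was 0 to 2. The leave-out and 6-library fits hold fewer libraries, while DESeq2 and log2(TPM + 1) used all 12. The cause of these shifts was not tested.

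Same-numbered libraries correlated between -0.061 and 0.06 over 18 pairs. The replicate block changed no call of the 8 genes (Tnfsf9 2.63 with edgeR adjusted p = 0.0441 and Cd69 2.43 with 0.0239 in the combination against Control; Tnfsf9 2.99 with 0.027 against CSF1Ri), took genes called to 59 and 121 in those comparisons and 49 for any difference, and ended the calls of Nfkb1 (0.0737 and 0.0534) and Nfkb2 (0.059). Signs changed under the block for Cd86 with CSF1Ri (0.03), Icosl in the combination over Control (-0.0011) and Cd83 over CSF1Ri (-0.16).

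On log2(TPM + 1) the changed values were Cd86 with CSF1Ri 0.01, Icosl -0.25 and Cd83 -0.28 in the combination over Control, and Icosl -0.12 and Cd83 -0.50 over CSF1Ri. With voom Cd83 was -0.04 over Control and -0.27 over CSF1Ri, and with no scaling factor Icosl was -0.08 over Control and Cd83 -0.03 over CSF1Ri. Without both outlying libraries, Cd86 (0.08) and Tnfsf9 (0.01) changed sign with CSF1Ri, Pdcd1lg2 (0.10) in the combination over Control, Cd86 (0.23), Pdcd1lg2 (0.36) and Cd83 (0.03) over CD40 agonist, while over CSF1Ri Icosl was 0.67 and Cd83 0.56, and the interactions changed sign for Cd86 (0.15), Icosl (0.24) and Cd69 (-0.15).

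Leaving out 1 library, ranges that crossed 0 were, over Control, Pdcd1lg2 with CD40 agonist -0.41 to 0.05; Cd86 -0.21 to 0.13, Icosl -0.37 to 0.12 and Cd83 -0.09 to 0.42 with CSF1Ri; and Cd86 -0.02 to 0.59, Pdcd1lg2 -0.8 to 0.1, Icosl -0.3 to 0.32 and Cd83 -0.31 to 0.66 in the combination. Tnfsf9 with CSF1Ri ranged from -0.59 to -0.01. Over CD40 agonist they were Cd86 -0.38 to 0.23, Pdcd1lg2 -0.54 to 0.36 and Cd83 -0.94 to 0.03, over CSF1Ri Icosl -0.18 to 0.44 and Cd83 -0.47 to 0.5, and for the interaction Cd86 -0.36 to 0.25, Icosl -0.61 to 0.02 and Cd69 -0.09 to 0.38.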
